A study of Homo sapiens with 4 samples.

Results

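The names miR-31-5p and miR-491-5p were examined in miRNA sequencing (miR-seq) of U-251 cells, an established human glioma cell line. They were taken by name from the table of counts, as every name of miR-31 or miR-491 with or without an arm, and 2 of the 746 names in the table matched. The 4 libraries are biological replicates of 1 group, wild-type U251 cells that the labels describe as given the vehicle DMSO, whereas the study describes basal, non-irradiated cells. The cells were grown in DMEM with FBS, so all values come from 1 line in culture with serum. No other genotype, treatment or time was analysed here, and no comparison between conditions was possible. Total counts ranged from 12363104 to 13214969 per library. Levels are given in CPM, counts per 1000000 counts of the library, with the SD between the 4 libraries. Blank cells were read as 0 but set no upper limit on a level: miR-24-1-5p was blank in replicate 1, where miR-24-2-5p, within 10% of it in the other libraries, had 94306 counts.

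CDKN2A, on the short arm of chromosome 9 at 9p21, encodes inhibitors of the cell cycle and is lost in many gliomas, often together with its neighbour MTAP, an enzyme of methionine salvage. U-251 is known as a line with a deletion of CDKN2A. A miRNA gene is transcribed as a hairpin, from which a short mature strand is cut and loaded into an Argonaute protein, and this strand finds its target mRNAs mainly through the seed near its 5′ end. miR-31 is known for its roles in cell motility and metastasis, and miR-491-5p has been described as a repressor of EGFR and BCL-xL in tumour cells. DNA copy number was not analysed here, so which bases of 9p21 these cells retain was not tested.

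The mature sequences that carry each name are shown to compare their seeds, bases 2 to 8, which are in capitals. They are RefSeq entries on GRCh38.p14.
miR-31-5p: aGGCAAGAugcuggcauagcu
miR-491-5p: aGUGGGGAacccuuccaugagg
The seeds differ, and neither seed was found in any other of the 2370 mature names of RefSeq. Each mature sequence matched the genome exactly at 1 place across the 25 chromosomes of hg38, searched on both strands. The closest other mature names were 7 edits away from miR-31-5p, among them miR-1256, and 8 edits away from miR-491-5p, among them miR-3688-5p. The counts of both names were whole numbers, in contrast to 40 other names.

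The hairpins show where in the precursor each mature strand lies, which is in capitals.
MIR31: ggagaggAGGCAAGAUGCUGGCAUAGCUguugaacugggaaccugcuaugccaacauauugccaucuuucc
MIR491: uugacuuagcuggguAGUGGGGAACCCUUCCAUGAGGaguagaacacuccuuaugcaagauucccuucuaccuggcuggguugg
Both mature strands come from the 5′ side, starting at base 8 of the 71 bases of MIR31 and at base 16 of the 84 bases of MIR491. The hairpins had nearly the same GC content, 50.7% for MIR31 and 51.2% for MIR491, whereas the mature strands had 52.4% and 59.1%. The longest run of bases found in both hairpins was 7 bases long, so they are not identical copies. Whether they share an origin was not tested.

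In the GENCODE annotation of GRCh38, MIR31 spans bases 21512115 to 21512185 of the minus strand of chromosome 9. It is inside the long non-coding gene MIR31HG, from 21380073 to 21559891 on the same strand, and lies in an intron of each of the 21 transcripts that span it. MIR491 spans bases 20716105 to 20716188 of the plus strand of the same chromosome. It is inside the protein-coding gene FOCAD, which encodes focadhesin, from 20658309 to 20995955 on the same strand, and lies in an intron of both transcripts that span it. CDKN2A covers bases 21967752 to 21995301, also on the minus strand. MIR31 ends 455.6 kb and MIR491 1251.6 kb before CDKN2A, on its telomeric side, and they are the first and the second nearest of the 84 miRNA genes of chromosome 9. Between MIR31 and CDKN2A the annotation has 1 complete protein-coding gene, MTAP, and no miRNA gene. The 795.9 kb between MIR491 and MIR31 hold 18 complete protein-coding genes, of which 16 are interferon genes.

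Both miRNAs were counted in every library, at very different levels. From replicate 1 to 4, the name miR-31-5p had 45628, 61724, 77256 and 52324 counts. These are 3638, 4671, 6249 and 4104 CPM, so replicate 3 was the highest and replicate 1 the lowest. The mean was 4665 ± 1137 CPM (SD, n = 4), or 0.467% of all miRNA counts.

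For miR-491-5p the corresponding counts were 252, 366, 243 and 274. These are 20.1, 27.7, 19.7 and 21.5 CPM, so replicate 2 was the highest and the other libraries lay close together. The mean was 22.2 ± 3.72 CPM (SD, n = 4). The 95% Wilson interval of replicate 2 ran from 25.0 to 30.7 CPM and did not overlap that of replicate 3, from 17.3 to 22.3 CPM. Such intervals cover counting error only.

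**Figure D1:**
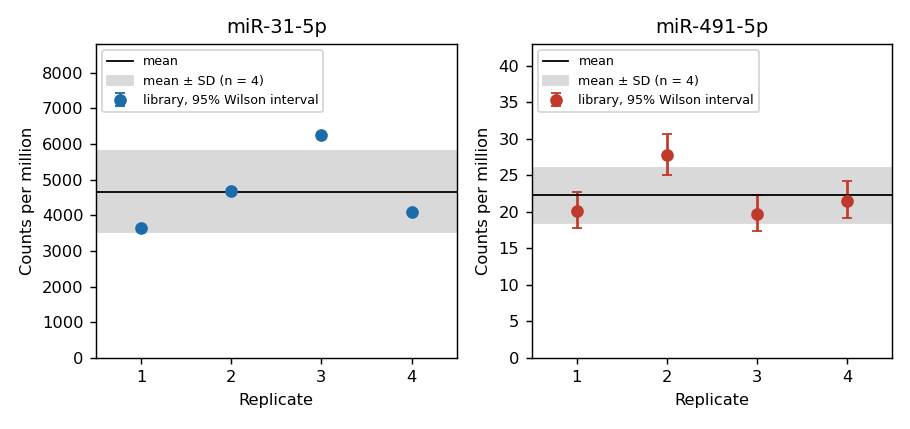
CPM of miR-31-5p (left) and miR-491-5p (right) in each of the 4 replicates, with the 95% Wilson interval of each library, the mean as a line and the mean ± SD as a grey band. Replicate 3 is the highest for miR-31-5p at 6249 CPM, and replicate 2 is the highest for miR-491-5p at 27.7 CPM.

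The labels' 5p arm needs care in this table. It lists 538 names of the 5p arm and 18 of the 3p arm, and names of the 3p arm of miR-31 and miR-491 were not analysed here. For 9 pairs of 5p names, RefSeq hairpins hold the same 3p sequence, whereas their 5p sequences differ. In 7 of these pairs the counts lay within 10% of each other in every library where both had a value, as for miR-24-1-5p with 104745 and miR-24-2-5p with 102949 counts in replicate 2. Whether the counts of miR-31-5p and miR-491-5p also hold reads of the 3p strand was not tested, so the values are levels of the names and not of a strand. Both names of each pair enter the library totals and the ranks. Whether some reads are thereby counted more than once in the totals behind CPM was not tested.

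Within each library, miR-31-5p was counted far more often than miR-491-5p, the nearest miRNA gene to it. After adding 0.5 counts to both, their ratios in replicates 1 to 4 were 180.7, 168.4, 317.3 and 190.6. Replicate 3 had the highest ratio, since miR-31-5p was at its highest and miR-491-5p at its lowest there. The mean log2 ratio was 7.69 ± 0.417 (SD, n = 4), equal to 207.1-fold, and the direction was the same in 4 of 4 libraries. An exact permutation of the signs of the log2 ratios, two-sided, gave p = 0.125, which is the smallest that 4 libraries allow, so no ratio within these libraries can pass a threshold of 0.05. After Benjamini-Hochberg adjustment over 5 such ratios, the pair and both reference miRNAs below, the exact test again gave 0.125.

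By the count summed over the libraries, miR-31-5p ranked 27 and miR-491-5p ranked 189 of the 621 names with a value. In single libraries the rank of miR-31-5p lay between 25 and 31 and that of miR-491-5p between 177 and 189. miR-31-5p was above 95.7% and miR-491-5p above 69.6% of the names with a value. Let-7a-5p, the most abundant name and a member of a family of growth inhibitors, was counted 50.1 times as often as miR-31-5p, with a range of 36.4 to 65.5 over the libraries. miR-21-5p, an abundant miRNA of many tumours, was counted 6.14 times as often as miR-31-5p, with a range of 3.56 to 15.2. The highest of these ratios was that of replicate 1, where miR-21-5p is itself high. Both miRNAs passed 10 counts in every library, as did 37.5% of all 746 names, and both had a value in every library, as did 41.4% of all names.

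**Figure D2:**
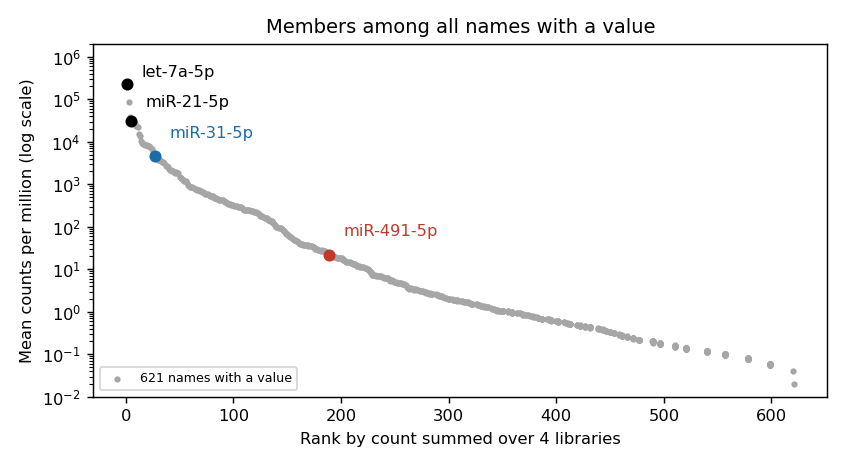
Mean CPM on a log scale against the rank by count summed over 4 libraries, for the 621 names with a value in at least 1 library (grey points). miR-31-5p at rank 27 and miR-491-5p at rank 189 are coloured, and let-7a-5p and miR-21-5p are marked in black.

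With blanks read as 0 counts, the order of each miRNA against its neighbours in rank varied between libraries. Directly above miR-31-5p were miR-29a-5p and miR-24-1-5p, and directly below were miR-182-5p and miR-361-5p. miR-29a-5p had 55525, 61817, 65653 and 55107 counts in replicates 1 to 4 and was above miR-31-5p in all libraries but replicate 3, and their log2 ratio averaged 0.03 ± 0.214 (SD, n = 4; the same exact test, p = 0.625). miR-361-5p was above miR-31-5p in replicate 1 alone, and their log2 ratio averaged -0.12 ± 0.300 (SD, n = 4; exact test, p = 0.625). miR-24-1-5p was blank in replicate 1, and miR-182-5p had a value in replicate 1 alone, with 214667 counts. Their ranks therefore follow from how blanks are read, here as 0 counts.

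The neighbours of miR-491-5p were miR-374b-5p and miR-3173-5p above and miR-1271-5p and miR-122-5p below, with mean log2 ratios to miR-491-5p between -0.25 and 0.09. Each of the 4 SDs, from 0.357 to 0.791, was larger than its ratio. Across both miRNAs, 0 of the 8 neighbour pairs had the same order in all 4 libraries, and the adjusted value of the exact test was 1 for each. Of the neighbours, 2 have blanks, miR-24-1-5p and miR-182-5p, so for these the count depends on reading blanks as 0. Wherever miR-24-1-5p had a value, it was above miR-31-5p. The neighbours were picked by summed counts from these same libraries, and with 4 libraries the exact test cannot go below 0.125. It could therefore not have separated any neighbour. In rank, miR-491-5p lay beside miR-122-5p, a miRNA typical of liver, at 20.5 ± 10.9 CPM (SD, n = 4).

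The levels varied between libraries about as much as those of other miRNAs. The coefficient of variation was 24.4% for miR-31-5p and 16.8% for miR-491-5p, against a median of 20.1% over the 280 names with at least 10 counts in every library. Their ranks were 171 and 111 of 280 from the least variable. Counting error alone would give 0.411% for miR-31-5p and 5.94% for miR-491-5p, below the spread of both between all 4 libraries. The common biological coefficient of variation of edgeR over the 280 names was 25.1%. The values for each miRNA, which edgeR draws towards those of the other names, were 22.0% for miR-31-5p and 24.4% for miR-491-5p. A single library carried much of each spread. Without replicate 3 the coefficient of variation of miR-31-5p was 12.5%, and without replicate 2 that of miR-491-5p was 4.70%. The latter is below the 5.94% of counting error, which was computed at the mean count of all 4 libraries, replicate 2 included.

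Across the libraries the pair did not move alike. Likeness was measured as the root mean square distance between log2 CPM values, each centred on its mean over the 4 libraries, among the 280 names. miR-31-5p and miR-491-5p were 0.361 apart, where the median distance of all names was 0.342 from miR-31-5p and 0.314 from miR-491-5p. The nearest names to miR-31-5p were miR-574-5p at 0.028, miR-299-5p at 0.028 and miR-381-5p at 0.071. miR-574-5p had 4428, 5735, 7226 and 4834 counts in replicates 1 to 4, with its highest value in replicate 3 like miR-31-5p. The nearest names to miR-491-5p were miR-2277-5p at 0.044, miR-664a-5p at 0.080 and miR-15b-5p at 0.092. miR-2277-5p had 113, 170, 105 and 118 counts, with its highest value in replicate 2 like miR-491-5p. The nearest names were chosen from 279 by these same 4 values, so a shared highest replicate follows from the choice. These distances rest on 4 libraries of 1 group and describe variation between replicates.

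**Figure D3:**
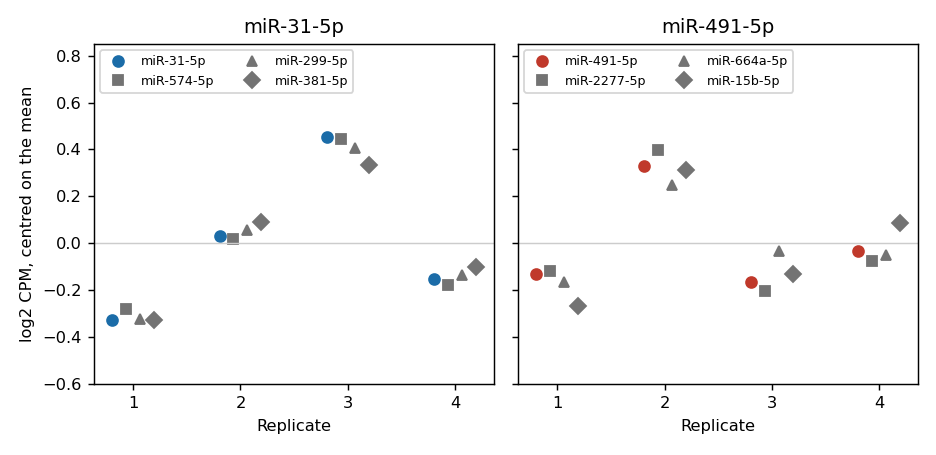
Log2 CPM centred on the mean over 4 libraries, by replicate, for miR-31-5p (left) and miR-491-5p (right) as coloured circles, each beside the 3 names at the smallest distance from it (grey markers, shifted sideways for legibility). miR-31-5p and its nearest names are highest in replicate 3, and miR-491-5p and its nearest names are highest in replicate 2.

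The other miRNAs of the short arm of chromosome 9 give the surroundings of the pair. Of the 746 names, 10 have hairpin genes on this arm alone, and 5 of the 10 (50.0%) passed 10 counts in every library, against 37.5% of all names and 9 of 28 names of the long arm (32.1%). The 5 include the pair itself, so this share is not that of its surroundings alone. The others that passed were miR-4474-5p, miR-873-5p and miR-101-2-5p. Ordered by distance, miR-31-5p at 0.456 Mb was the closest to CDKN2A and had the highest level of the 10. miR-491-5p followed at 1.252 Mb.

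The next 3 names towards the telomere had few counts. miR-4474-5p, at 1.465 Mb in the region of MLLT3, had 10, 32, 16 and 19 counts in replicates 1 to 4. miR-4473, at 1.557 Mb, had 15 counts in each of replicates 1 and 2 and was blank in the others. miR-3152-5p, at 3.394 Mb, had 7 counts in replicate 1 alone. miR-491-5p was counted more often than miR-4474-5p in all 4 libraries, and more often than the other two names wherever they had a value.

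On the centromeric side, the nearest name in the table was miR-873-5p at 6.894 Mb, with 250.2 ± 40.8 CPM (SD, n = 4). It had 2456, 3626, 3556 and 3097 counts in replicates 1 to 4, a level between those of the pair. miR-6851-5p, at 11.473 Mb, had 22 counts in replicate 2 alone. miR-4667-5p, at 13.613 Mb, had 15, 12 and 9 counts in replicates 1 to 3 and none listed in replicate 4. miR-1299, at 18.934 Mb, had 815, 693 and 687 counts in replicates 1 to 3 and a blank in replicate 4, so a blank here is no sign of a low level.

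The most distant name on the telomeric side was miR-101-2-5p at 17.117 Mb, with 346.7 ± 57.2 CPM (SD, n = 4). Its counts of 5047, 3587, 4665 and 4279 lay within 10% of the 4966, 3532, 4576 and 4207 counts of miR-101-5p, whose name also covers a hairpin gene on another chromosome. Those 2 names form one of the 9 pairs with a shared 3p sequence, so the part of MIR101-2 in them cannot be told apart.

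**Figure D4:**
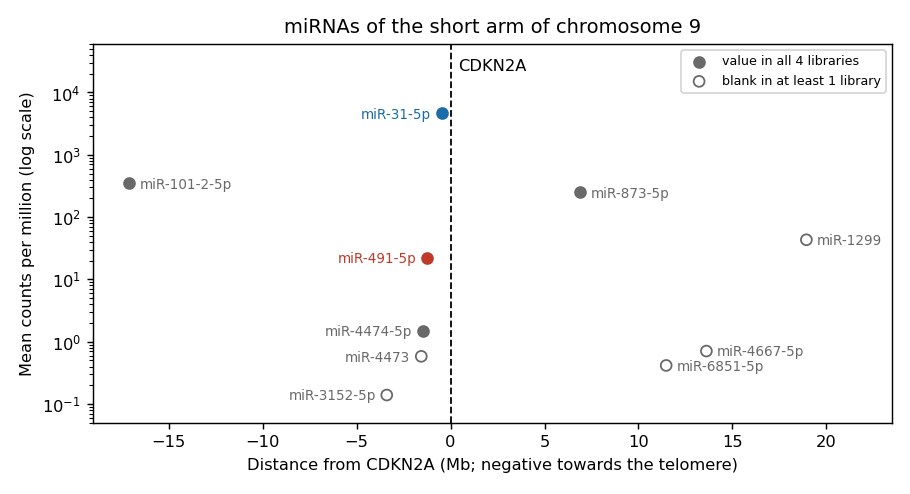
Mean CPM on a log scale against the distance from CDKN2A in Mb, for the 10 names with hairpin genes on the short arm of chromosome 9 alone; filled points have a value in all 4 libraries and open points are blank in at least 1. miR-31-5p lies nearest to CDKN2A and highest at 4665 CPM, with miR-491-5p at 22.2 CPM next to it and the next 3 telomeric names below both, with blanks read as 0.

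The level of the pair was also set beside miRNAs of regions that are often deleted in tumours. Of 9 such names, 7 (77.8%) passed 10 counts in every library, against 37.5% of all names. miR-101-2-5p of 9p and miR-101-5p, which cannot be told apart, are among the 7. miR-31-5p lay above miR-15a-5p, a repressor of BCL2 from 13q14, with 432.7 ± 51.2 CPM, and above the p53 target miR-34a-5p of 1p36 with 230.4 ± 55.7 CPM (SD, n = 4 for both). It lay below miR-16-5p, the partner of miR-15a, with 28306 ± 7256 CPM (SD, n = 4), a name with hairpin genes on more than 1 chromosome. miR-491-5p had a level like that of miR-146b-5p of 10q, an inhibitor of NF-kB signalling, with 28.6 ± 6.03 CPM (SD, n = 4). miR-107, also of 10q, had 855.5 ± 114.6 CPM (SD, n = 4). miR-34b-5p with 6 counts in replicate 2 alone, and miR-34c-5p with 3 counts in each of replicates 2 and 3, were the names of this list that did not pass. These differences between names were not tested.

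A list of 17 miRNAs typical of red or white blood cells, liver, muscle, neurons or epithelium was also examined. They gave 16 names, with both miR-1-3p and miR-1-5p among them, whereas no name of miR-223 or miR-206 was analysed here. Of the 16 names, 14 had a value in some library, as did 621 of all 746 names. Of the same 16 names, 7 passed 10 counts in every library, against 37.5% of all names. Their summed level ranged from 175.4 to 290.3 CPM, led by miR-486-5p of red cells with 178.3 CPM. The other names that passed were miR-150-5p of white cells, miR-122-5p of liver, miR-129-5p of neurons, and miR-141-5p, miR-200a-5p and miR-200c-5p of epithelium. Of these, miR-150-5p had a mean of 1.55 CPM. The names that did not pass included miR-144-5p and miR-451a of red cells, miR-142-5p of white cells and miR-124-5p of neurons. Not passing either were miR-1-3p, miR-1-5p and miR-133a-5p of muscle, and miR-200b-5p and miR-205-5p of epithelium. miR-129-5p had 66.5, 68.5, 145 and 230.5 counts in replicates 1 to 4, with a mean of 10.1 CPM. miR-451a of red cells and miR-124-5p of neurons were blank in every library. This sum is a small part of the level of miR-31-5p but exceeds that of miR-491-5p, and the part of RNA from other cells or from serum in either level was not tested. Reads are not independent molecules unless their identifiers were used, and the sources used here do not give how these were handled.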

How the data were processed

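U-251 miR-seq libraries, 4 biological replicates of 1 group, were analysed. The authors deposited unnormalized estimated counts per miRNA name. The submitters' notes and the study's methods name bcl2fastq 2.20, Trimmomatic, Bowtie, miRDeep2 and the build hg38. The labels describe mRNA capture, whereas the methods name a miRNA kit. The miRNA annotation release was not given in the sources used here. Blank cells were read as 0 counts.

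CPM, ranks, distances and exact permutations of signs within libraries used Python 3.11.15 (numpy 2.4.6, scipy 1.17.1, pandas 2.3.3), with matplotlib 3.10.9 for plots. Counts rounded to whole numbers gave dispersions in edgeR 4.0.16 (intercept-only design, at least 10 counts in every library) and size factors in DESeq2 1.42.0 under R 4.3.3. The edgeR dispersion was tested on simulated counts. The exact test, the Benjamini-Hochberg adjustment and Dixon's ratio, given below, were tested on inputs with known answers. Hairpin genes came by name from GENCODE release 44 or, failing that, RefSeq, for 741 of 746 names. The short arm was taken as starts below 43 Mb.

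Named were the pair, 2 neighbours in rank on each side, the short-arm names, the 3 nearest patterns, names sharing a seed, the deletion list and 2 reference miRNAs. Names in other pairs, the closest sequences and markers were chosen after their values were seen or belong to the marker list. The members and lists were chosen with earlier results of these data known. Irradiated cells and other assays were not analysed here.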

Additional observations from a re-analysis of the deposited data

Results flagged for a closer look

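Dixon's ratio, the gap of the most distant library to the nearest other over the range of all 4, was past its 95% critical value in 7 of 35 results checked. About 1.75 would be expected by chance for independent results without blanks. The 35 results include names with blanks, names with near-equal counts and names chosen for likeness to the pair, so this figure is only a rough guide. Neither miR-31-5p, with a gap over range of 0.604, nor miR-491-5p, with 0.772, passed it. For miR-374b-5p, a neighbour of miR-491-5p in rank, the ratio was 0.913, from 483 counts in replicate 1 against 231 to 263 in the others. For miR-21-5p it was 0.911, also at replicate 1. For miR-24-1-5p it was 0.962, set by its blank in replicate 1. For miR-182-5p, miR-3152-5p, miR-6851-5p and miR-34b-5p it was 1, which follows from a value in 1 library and blanks in the others.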

How the results depend on the processing

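The alternatives recomputed 10 results and gave 72 values. Of these, 62 stayed on the side of the threshold, within the spread between libraries or, for counts and ranks, within 1.5 times the reported value. Some of the 62 could not have come out otherwise and say nothing about robustness. With so few libraries the exact test of the log2 ratio cannot pass the threshold under any alternative. Reading blanks as missing could not change the levels or the ratio, because both miRNAs had a value in every library. With the let-7 names left out of the denominator, the level was 12558 CPM for miR-31-5p and 59.4 CPM for miR-491-5p, which follows from the smaller denominator. Leaving out one replicate gave 4137 to 5008 CPM for miR-31-5p, 20.4 to 23.1 CPM for miR-491-5p and 7.49 to 7.79 for their mean log2 ratio. With any count in any library as the minimum, 10 short-arm names were detected in place of 5, and leaving out one replicate gave 5 to 6. Without one replicate the coefficient of variation ranged from 12.5% to 29.9% for miR-31-5p and from 4.70% to 20.1% for miR-491-5p. For edgeR's common biological coefficient of variation, dropping the low-count filter gave 120.3% over 621 names, and leaving out one replicate gave 17.2% to 27.9%, the lowest without replicate 1. Leaving out one replicate left 0 to 3 neighbour pairs in the same order throughout, the most without replicate 1, where 2 of the 3 pairs rest on blanks, those of miR-24-1-5p and miR-182-5p. No paired analysis was possible because there is only 1 group of replicates.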
